A study of Caenorhabditis elegans with 2 samples.

Results

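The hedgehog-related and patched-related genes of Caenorhabditis elegans were examined for regions bound by the epidermal GATA factor ELT-3. They were chosen by name. The set holds every protein-coding gene of the WBcel235 annotation named wrt, grd, grl or ptr with a number, together with hog-1, qua-1, ptc-1 and ptc-3. One gene whose name fits the pattern was not analysed here. This gave 84 of the 19973 protein-coding genes, of which 59 are ligand-like (10 wrt, 16 grd and 31 grl genes, hog-1 and qua-1) and 25 are receptor-like (23 ptr genes, ptc-1 and ptc-3). For each gene the search covered a promoter window, which reached 1000 bp upstream and 200 bp downstream around the annotated 5′ end, and the gene's introns.

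Hedgehog proteins are secreted signals that are cut by their own C-terminal part, and Patched is the membrane protein that receives them. C. elegans lacks a typical hedgehog gene and a Smoothened gene, but it has large families of secreted proteins related to hedgehog, named warthog (wrt), ground (grd), ground-like (grl) and quahog (qua), and many Patched-related (ptr) membrane proteins with a sterol-sensing domain. Genes of both kinds are known for roles in the epidermis, in the apical extracellular matrix and in moulting. ELT-3 is known as a regulator of epidermal genes, and GATA factors bind the word GATA with preferred bases beside it.

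The data came from chromatin immunoprecipitation sequencing (ChIP-seq) of whole L3 larvae of strain OP75, with both sexes pooled, in 2 biological replicates of 1 library each. All animals carried unc-119(ed3) III and the transgene wgIs75, which makes ELT-3 fused to enhanced green fluorescent protein. Whole animals were used, so a region cannot be assigned to a cell type. Per the labels, the assay was against the fusion while the antibody is given as elt-3, so whether endogenous ELT-3 was also recovered cannot be told. The labels name a possible control experiment that was not used here, and with 1 group of samples there is no comparison between conditions.

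The authors deposited relaxed lists, which mix peaks with background regions, for replicate 1 (30000 regions), replicate 2 (30000 regions) and the pooled replicates (21761 regions). They also deposited a list of 280 peaks that passed an irreproducible discovery rate (IDR) threshold, and these were the 280 strongest regions of the pooled list. Regions were ranked by the authors' signal value, rank 1 being the strongest, and placed by their summit. Signal ran from 15.1 to 148 in the pooled list, from 6.45 to 95.2 in replicate 1 and from 8.47 to 53.9 in replicate 2. The sources used here do not give the scaling of the signal, so a value is read only within its own list. The read depth is unknown. At elt-3 itself, the strongest pooled region had rank 20 and signal 93.4 in an intron, with rank 37 in replicate 1 and rank 19 in replicate 2. The share of this value that comes from transgene copies of the locus was not tested.

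The sequences below show what lay under the summits that the results turn on. Each is 101 bases centred on a pooled summit, on ce11 and on the strand of the gene, from the RefSeq genome of WBcel235. Capitals mark GATA words. The word AGATAA was searched together with the word AGATAG, the word TGATAA and the word TGATAG, on both strands, so that TTATCT in capitals is AGATAA on the opposite strand. No word of these overlaps another within a printed sequence. The first sequence, from an intron of grl-15 at chrIII:12234116-12234216 (minus strand), is the strongest region of the set within the searched sequence. The second lies in the first intron of ptr-18 at chrII:12965714-12965814 (plus strand). The third is the intron site of grd-9 at chrV:5895624-5895724 (plus strand), which both replicates list within 100 bp. The fourth and the fifth are the promoter sites of ptr-4 at chrX:6066918-6067018 (minus strand) and of qua-1 at chrII:8198024-8198124 (plus strand), which hold no GATA word.
grl-15: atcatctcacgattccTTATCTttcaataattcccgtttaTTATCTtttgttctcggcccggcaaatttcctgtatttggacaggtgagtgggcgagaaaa
ptr-18: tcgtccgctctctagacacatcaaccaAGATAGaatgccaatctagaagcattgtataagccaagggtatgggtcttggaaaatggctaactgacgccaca
grd-9: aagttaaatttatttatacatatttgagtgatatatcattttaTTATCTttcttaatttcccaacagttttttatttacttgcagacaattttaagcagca
ptr-4: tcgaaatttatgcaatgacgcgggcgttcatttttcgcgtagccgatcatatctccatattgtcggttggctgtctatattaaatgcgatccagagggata
qua-1: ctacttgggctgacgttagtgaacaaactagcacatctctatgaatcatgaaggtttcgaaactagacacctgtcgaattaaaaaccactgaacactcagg

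In the pooled list, 45 of the 84 genes (53.6%, 95% Wilson interval 43.0 to 63.8) had a region in the promoter window or an intron, and 42.2% of all protein-coding genes did. The receptor-like genes held a region more often than the ligand-like genes, 20 of 25 (80.0%, interval 60.9 to 91.1) against 25 of 59 (42.4%, interval 30.6 to 55.1). The ligand-like share was near that of all genes. Replicate 1 listed 24 receptor-like genes (96.0%) and 35 ligand-like genes (59.3%), beside 53.4% of all genes. Replicate 2 listed 20 receptor-like genes (80.0%) and 36 ligand-like genes (61.0%), beside 51.9% of all genes. The intervals cover counting error over genes only, and genes are not replicates.

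The families differ in how much sequence was searched. The median was 3779 bp for a receptor-like gene, 1752 bp for a ligand-like gene and 1878 bp for all genes. Per kb of searched sequence, the pooled list held 0.343 regions in receptor-like genes, 0.318 in ligand-like genes and 0.232 in all genes. Replicate 1 held 0.535, 0.508 and 0.326 regions per kb in the same order. In replicate 2 the order of the classes turned, with 0.399 in receptor-like genes, 0.492 in ligand-like genes and 0.307 in all genes. Without chromosome I, the pooled values were 0.302, 0.306 and 0.220. In the promoter window, which has the same 1201 bp for every gene, a pooled region was found in 23 of 84 genes (27.4%), beside 26.9% of all genes. Of these, 10 were receptor-like (40.0%) and 13 ligand-like (22.0%). Replicate 1 kept that order, with 14 receptor-like (56.0%) and 23 ligand-like genes (39.0%) beside 36.6% of all genes. Replicate 2 turned it, with 8 receptor-like (32.0%) and 26 ligand-like genes (44.1%) beside 33.6% of all genes. The order of the classes in promoters therefore differed between the replicates.

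Among the 5000 strongest pooled regions, 9 receptor-like genes (36.0%) and 5 ligand-like genes (8.47%) were represented, beside 12.7% of all genes. Per kb searched, these stronger regions numbered 0.0798 in receptor-like genes, 0.0455 in ligand-like genes and 0.0549 in all genes. For the 5000 strongest regions of replicate 1 the values were 0.104, 0.0985 and 0.0571, so the classes were alike there, and for those of replicate 2 they were 0.0798, 0.0455 and 0.0513. Among the 1000 strongest, 4 genes were represented (4.76%), beside 3.19% of all genes, and they were grl-15, ptr-12, ptr-4 and ptr-11. No IDR peak had its summit in a promoter window or an intron of the 84 genes, and 0.951% of all genes had one. Over 84 genes, a count of 0 has a Wilson upper limit of 4.37%. The median rank of the strongest region was 8856 in ligand-like genes with a region, 5796 in receptor-like genes and 9050 in all genes.

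**Figure D1:**
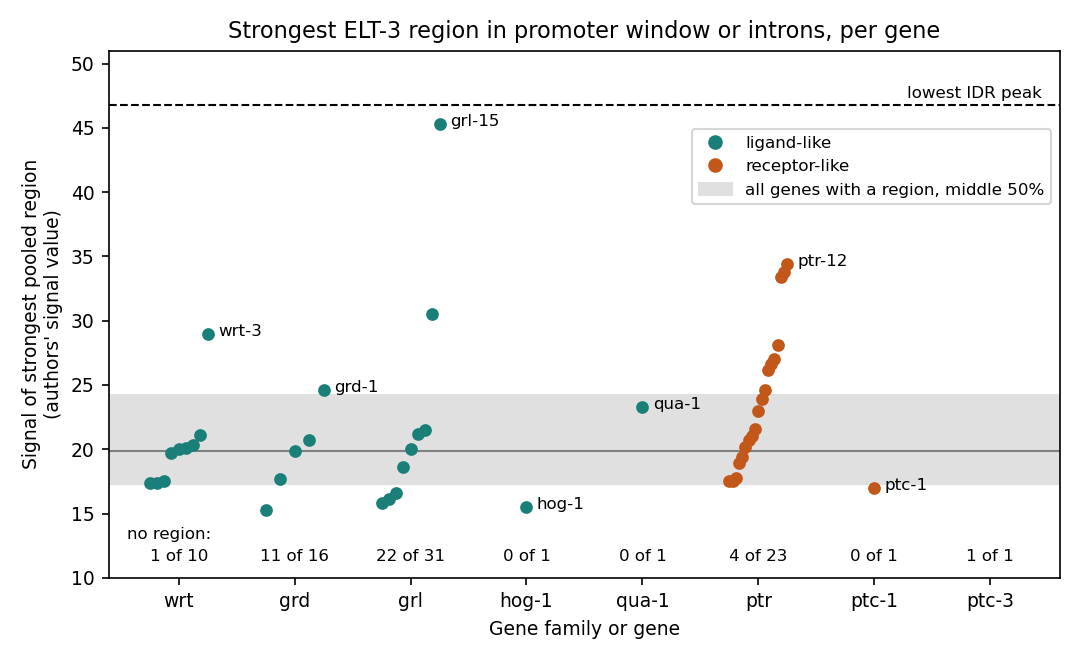
Signal of the strongest pooled region in the promoter window or introns of each gene (vertical axis, authors' signal value), by family or gene (horizontal axis). Each point is 1 gene, the numbers at the bottom count genes with no region, the grey band and line are the middle 50% and the median (19.9) of all genes with a region, and the dashed line is the weakest IDR peak (46.8). Only grl-15 (45.3) comes near that line, and most grd and grl genes have no region in that sequence.

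**Figure D2:**
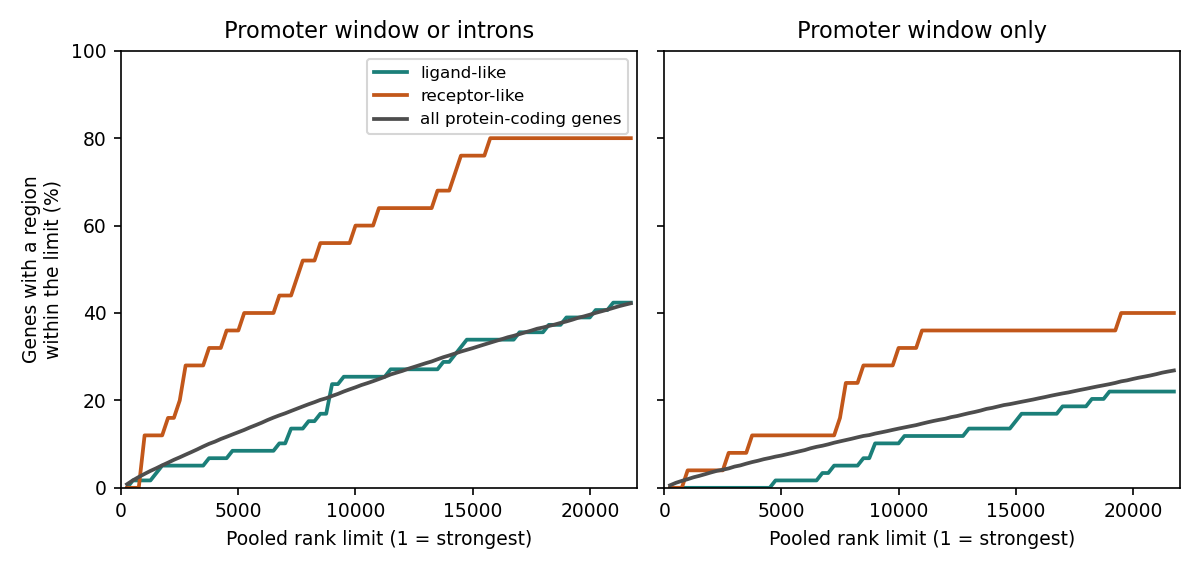
Percent of genes with a region (vertical axis) as weaker regions of the pooled list are admitted (horizontal axis, rank limit), for the promoter window with introns (left) and the promoter window alone (right). The receptor-like curve ends at 80.0% on the left and 40.0% on the right, and the ligand-like curve ends at 42.4% and 22.0%, beside 42.2% and 26.9% for all protein-coding genes.

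Of the wrt, grd and grl families, wrt had the largest share of genes with a region in each relaxed list, 9 of 10 in every case. A pooled region was present at 9 of 10 wrt genes (95% Wilson interval 59.6 to 98.2%), which encode warthog proteins. The counts were 5 of 16 grd genes (14.2 to 55.6%) and 9 of 31 grl genes (16.1 to 46.6%), beside 42.2% of all genes. The grd and grl shares lay below that of all genes, with intervals that include it. In replicate 1 the grd and grl shares were 56.2% and 48.4%, beside 53.4%, and in replicate 2 62.5% and 48.4%, beside 51.9%. Median searched lengths were 2148 bp (wrt), 1764 bp (grd) and 1600 bp (grl). Per kb searched, wrt genes held 0.530 pooled regions, grl genes 0.266 and grd genes 0.164, beside 0.232 in all genes. In replicate 1 the values were 0.736, 0.478 and 0.328, beside 0.326, and in replicate 2 they were 0.471, 0.496 and 0.437, beside 0.307, so the lead of the wrt genes was not seen in replicate 2. In strength, the wrt regions of the searched sequence were like those of other genes. Their median pooled signal was 20.0, beside 19.9 for all genes with a region.

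The strongest wrt region of the searched sequence was at wrt-3, with pooled signal 29.0 at rank 1701. It lay in an intron 2621 bp from the 5′ end and within 100 bp of an annotated pseudogene. At that site replicate 1 gave signal 12.4 (rank 5286) and replicate 2 gave 11.6 (rank 13180). Both replicates thus listed the site, at weaker ranks than the pooled list. The strongest replicate 1 region of wrt-3 lay elsewhere, 68 bp downstream of the 5′ end, with signal 17.7 at rank 1379. At wrt-9, the strongest pooled region had signal 21.1 (rank 7218) and lay 9415 bp into a gene with 13715 bp of searched sequence and 7 pooled regions. Neither replicate had a summit within 100 bp of it, but both had a region that overlaps it. In replicate 1 the overlapping region had signal 12.8 (rank 4688). In replicate 2 it had signal 13.8 (rank 6941, at 9554 bp) and was the strongest of the gene. The strongest replicate 1 region of wrt-9 lay elsewhere, with signal 18.1 (rank 1270, 5253 bp from the 5′ end). At wrt-6, the pooled signal was 20.3 (rank 8351), 933 bp upstream of the 5′ end, with matches of rank 28723 in replicate 1 and 9184 in replicate 2. The replicates differed at wrt-4, whose intron region 1270 bp from the 5′ end had pooled signal 20.0 (rank 8812). Replicate 2 ranked it 477 with signal 22.6, and replicate 1 had no region within 100 bp. The remaining searched regions, at wrt-10, wrt-8, wrt-1, wrt-7 and wrt-5, had pooled signals from 17.4 to 20.1, and wrt-2 had none there. Exons, which were not part of this search, held stronger pooled regions at wrt-2 (signal 32.0), wrt-1 (26.2), wrt-4 (24.1) and wrt-6 (23.5). Replicate 2 listed no exon summit at wrt-1, and replicate 1 listed none at wrt-6. The pooled exon region of wrt-3 was weaker (15.9), and the other wrt genes had none in exons.

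The grd genes encode ground proteins. Their strongest pooled region in the searched sequence was an intron region of grd-1 with signal 24.6 (rank 3651), 1799 bp from the 5′ end. Replicate 1 ranked the same site 1839 with signal 16.4, and replicate 2 had no summit within 100 bp, its nearest overlapping region having rank 15789. The site of grd-9 had pooled signal 20.7 (rank 7771), replicate 1 signal 9.85 (rank 11179) and replicate 2 signal 9.43 (rank 23687). It was weak in all lists, but all of them placed it within 5 bp, between 348 and 353 bp from the 5′ end. The promoter region of grd-16 had pooled signal 19.9 (rank 8992), with ranks of 19805 and 11810 at that site in replicates 1 and 2. It was the only grd promoter window with a pooled region. The intron regions of grd-12 and grd-11 had pooled signals of 17.7 and 15.3.

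Among the grl genes, which encode ground-like proteins, grl-15 had the strongest pooled region within promoter windows and introns of the 84 genes. Its intron site, shown above, had pooled signal 45.3 at rank 316, just below the weakest IDR peak at 46.8. Replicate 1 listed the same summit with signal 35.0 at rank 163. Replicate 2 had no summit within 100 bp, and its overlapping region had signal 10.1 at rank 20162. The strength of the grl-15 site in the pooled list thus goes with replicate 1 alone. The intron region of grl-16 had pooled signal 30.5 (rank 1374), and the same site had signal 10.4 (rank 9430) in replicate 1 and 15.5 (rank 4159) in replicate 2. The intron region of grl-25 had pooled signal 21.5 (rank 6667) and was listed by replicate 2 with signal 19.6 (rank 1151), while replicate 1 had no region in the promoter window or introns of the gene. The reverse held at grl-10, whose promoter region had pooled signal 20.0 (rank 8856). Replicate 1 ranked it 1252 with signal 18.2, and replicate 2 listed no region there. The regions of grl-5, grl-17, grl-23, grl-12 and grl-18 had pooled signals from 15.8 to 21.2. The other 22 grl genes had no pooled region in the promoter window or introns, and 10 of them had none there in either replicate.

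The genes qua-1 and hog-1 stand outside the large ligand-like families. At qua-1, which is needed for moulting, the strongest promoter region lay 729 bp upstream of the 5′ end with pooled signal 23.3 (rank 4701). Replicate 1 gave signal 12.5 (rank 5006) and replicate 2 signal 10.2 (rank 19593) at that site. At hog-1, which encodes a protein with a hedgehog-type C-terminal domain, the intron region had pooled signal 15.5 (rank 20012), close to the end of the list. Replicate 2 listed the same summit with signal 11.5 (rank 13822), and replicate 1 had its strongest region 1267 bp from the 5′ end with signal 11.6 (rank 6669).

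Among the receptor-like genes, 19 of 23 ptr genes had a pooled region (82.6%, interval 62.9 to 93.0), beside 42.2% of all genes. The median searched sequence of a ptr gene was 3779 bp, beside 1878 bp for all genes. Per kb searched, ptr genes held 0.356 pooled regions, beside 0.232 in all genes. Of the 4 genes among the 1000 strongest pooled regions, 3 were ptr genes. At ptr-4, which acts in the apical extracellular matrix, the strongest region lay 982 bp upstream of the 5′ end, 18 bp inside the window, with pooled signal 33.8 (rank 890). Replicate 2 listed the same summit with signal 23.4 (rank 383). Replicate 1 had no summit within 100 bp, and its overlapping region had signal 11.1 (rank 7626). At ptr-11, the intron region 1296 bp from the 5′ end had pooled signal 33.4 (rank 935) and replicate 2 signal 23.9 (rank 335), while the overlapping replicate 1 region had signal 9.65 (rank 11839). At both genes the strong replicate region was that of replicate 2. At ptr-18, the site shown above had pooled signal 28.1 (rank 1991), 218 bp from the 5′ end. Replicate 1 listed it with signal 22.5 (rank 630), and replicate 2 had no region that overlaps it.

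The other ptr genes among the 5000 strongest were ptr-16, ptr-10, ptr-21, ptr-15 and ptr-20, with pooled signals from 23.9 to 27.0. Of these, ptr-16, ptr-10 and ptr-21 had a summit within 100 bp in both replicates, in part at weak ranks. In replicates 1 and 2 the ranks were 8717 and 3921 for ptr-16, 2545 and 28395 for ptr-10, and 14699 and 5393 for ptr-21. The replicates disagreed on ptr-20, which had rank 1729 at the pooled site in replicate 2 and no overlapping region in replicate 1. The reverse was seen at ptr-15, with rank 2764 in replicate 1 and no region in replicate 2. At ptr-25, ptr-17, ptr-6, ptr-22, ptr-14, ptr-19, ptr-13, ptr-3, ptr-8 and ptr-1, pooled ranks ran from 5059 to 14259, and ptr-2, ptr-5, ptr-9 and ptr-24 had no pooled region in the promoter window or introns. The relatives closest to Patched are ptc-1 and ptc-3. At ptc-1, which is needed for germline cytokinesis, the intron region had pooled signal 17.0 (rank 15553) and replicate 1 signal 6.46 (rank 29895) at the same site, near the end of that list. Replicate 2 had no summit within 100 bp, and its overlapping region had signal 10.5 (rank 17903). At ptc-3, the searched sequence held no pooled region. Its strongest replicate regions had signal 13.4 (rank 3940, 1456 bp from the 5′ end) in replicate 1 and 10.6 (rank 17503, 5868 bp from the 5′ end) in replicate 2, which are different places.

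The strongest region in the body of any of the 84 genes lay outside the searched sequence. At ptr-12 (chromosome I, 2587527 to 2595294, minus strand), an IDR peak of rank 53 with signal 77.9 had its summit in the last coding exon, 7463 bp from the 5′ end and 5 bp past the start of that exon. Replicate 1 listed this site with signal 47.5 at rank 59, its summit 36 bp away in the adjoining intron, and replicate 2 listed it with signal 30.1 at rank 94 in the exon. It ranked within the first 100 of both replicate lists. The window of 101 bases on the pooled summit held 3 GATA words. The pooled intron region that represents ptr-12 in the counts above, with signal 34.4 at rank 835, overlaps this peak and lies 204 bp from its summit. A further region in a coding exon of ptr-12, 957 bp from the 5′ end, had pooled signal 37.1 at rank 628 and 2 GATA words. Replicate 2 ranked it 305, and replicate 1 had a region of rank 7105 there. No other annotated promoter window held the summit of the IDR peak.

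With exons searched as well, which was added after the values were seen, 54 of the 84 genes had a pooled region (31 ligand-like and 23 receptor-like), beside 52.0% of all genes. An IDR peak was then present at 1 of the 84 genes, ptr-12, beside 1.03% of all genes. At several genes of both classes, the strongest pooled region lay in an exon. At wrt-2, where the searched sequence held no pooled region, coding exons held regions of signal 32.0 (rank 1134) and 30.6 (rank 1366). Replicate 2 listed regions of rank 476 and 903 in coding exons of wrt-2, and replicate 1 listed 1 of rank 994 in an untranslated exon. The summit of that replicate 1 region also lies in an exon of another gene, pccb-1, so it cannot be assigned to either gene. At grl-2, a coding exon region had signal 29.5 (rank 1601), 1706 bp from the 5′ end, and replicate 2 ranked it 2572. Replicate 1 listed no summit in the exons, introns or promoter window of grl-2. At hog-1, a coding exon region had signal 28.2 (rank 1971), with rank 22932 in replicate 1 and rank 5526 in replicate 2. At qua-1, a region in the last, untranslated exon had signal 32.8 (rank 1018), with rank 1814 in replicate 1 and rank 3894 in replicate 2. The summit of that region is also 384 bp upstream of the 5′ end of col-76, a collagen gene, so it cannot be assigned to either gene. At ptc-3, a coding exon region had signal 22.5 (rank 5536), with rank 5430 in replicate 1 and rank 24547 in replicate 2 there. At ptr-2, a coding exon region 756 bp from the 5′ end had signal 27.0 (rank 2405) and 1 GATA word. Replicate 1 ranked it 11684 and replicate 2 ranked it 3862.

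**Figure D3:**
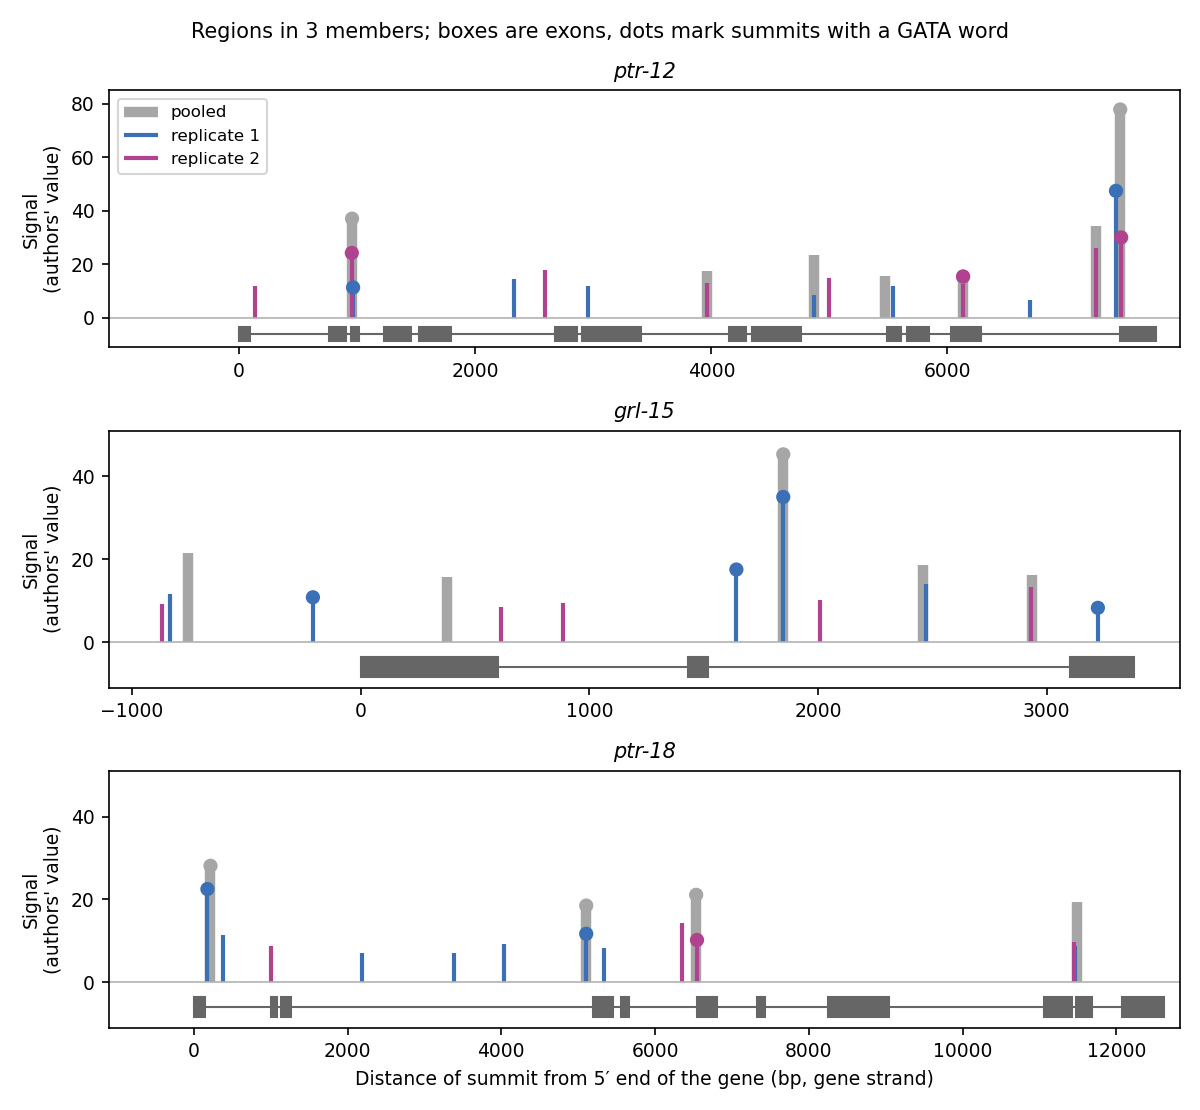
Regions along ptr-12, grl-15 and ptr-18, with distance from the 5′ end in bp on the horizontal axis and the authors' signal on the vertical axis. Wide grey bars are pooled regions, blue and magenta bars are regions of replicate 1 and replicate 2, dots mark summits with a GATA word within 50 bp, and boxes below are exons. All lists have a strong region at the start of the last exon of ptr-12 (pooled 77.9), whereas the strongest site of grl-15 (pooled 45.3) and of ptr-18 (pooled 28.1) has a replicate 1 bar within 100 bp and no replicate 2 bar that close.

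Agreement between the replicates was limited over the whole set. Of the 84 genes, 37 had a region in the searched sequence in all 3 relaxed lists (44.0%, beside 27.6% of all genes) and 14 had none in any (16.7%, beside 27.8%). The 14 were ptr-9 among the receptor-like genes and grd-2, grd-7, grd-10, grl-1, grl-2, grl-6, grl-8, grl-9, grl-14, grl-20, grl-24, grl-28 and grl-31 among the ligand-like genes. A pooled region with a region in 1 replicate alone was found at 8 genes (9.52%, beside 13.8% of all genes). A region in a replicate list but none in the pooled list was found at 25 genes (29.8%, beside 30.0%), and at 8 of these in both replicates (9.52%, beside 6.44%). These shares were not corrected for the length searched. The strongest pooled region had a summit within 100 bp in both replicates for 13 genes (15.5% of the 84), beside 12.8% of all genes. As a share of genes with a pooled region this was 28.9%, beside 30.2% of all such genes. The 13 were grl-16, wrt-3, qua-1, grl-5, grd-9, wrt-6, wrt-10 and grd-16 among the ligand-like genes and ptr-16, ptr-10, ptr-21, ptr-25 and ptr-17 among the receptor-like genes. A further 13 were matched in replicate 1 alone, 16 in replicate 2 alone and 3 in neither. None of the 4 genes among the 1000 strongest was among the 13.

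Each replicate taken alone gave a different short list. In replicate 1, the genes with a promoter or intron region among the 1000 strongest were ptr-12, grl-15 and ptr-18. In replicate 2 they were ptr-12, ptr-11, ptr-4 and wrt-4, so ptr-12 was the gene common to both in that sequence. In the pooled list, 3.19% of all genes had such a region at that limit. Short lists of this length are therefore not read as an excess. With exons included, wrt-1 (rank 469) and wrt-2 (rank 994) joined the replicate 1 list, and wrt-2 (rank 476) joined that of replicate 2. Then wrt-2 was also common to both, though its replicate 1 summit lies in an exon of pccb-1 as well. The wrt-2 regions of these ranks lie at different places, 1913 bp (replicate 1) and 769 bp (replicate 2) from the 5′ end. A further replicate 2 region (rank 903, at 1786 bp) overlaps the replicate 1 region, with its summit more than 100 bp away. Across the 45 genes listed in both replicates, the ranks of the strongest regions had a Spearman's rho of 0.427, beside 0.261 across 6797 such genes in all. These points share the libraries and the length searched in each gene and are not independent. The strongest region of the gene was the same site in both replicates for 4 of the 45 genes (8.89%), ptr-17, wrt-1, grl-5 and grd-9, beside 21.1% of all genes listed in both. The pooled list placed the strongest region of wrt-1 elsewhere, in an intron.

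**Figure D4:**
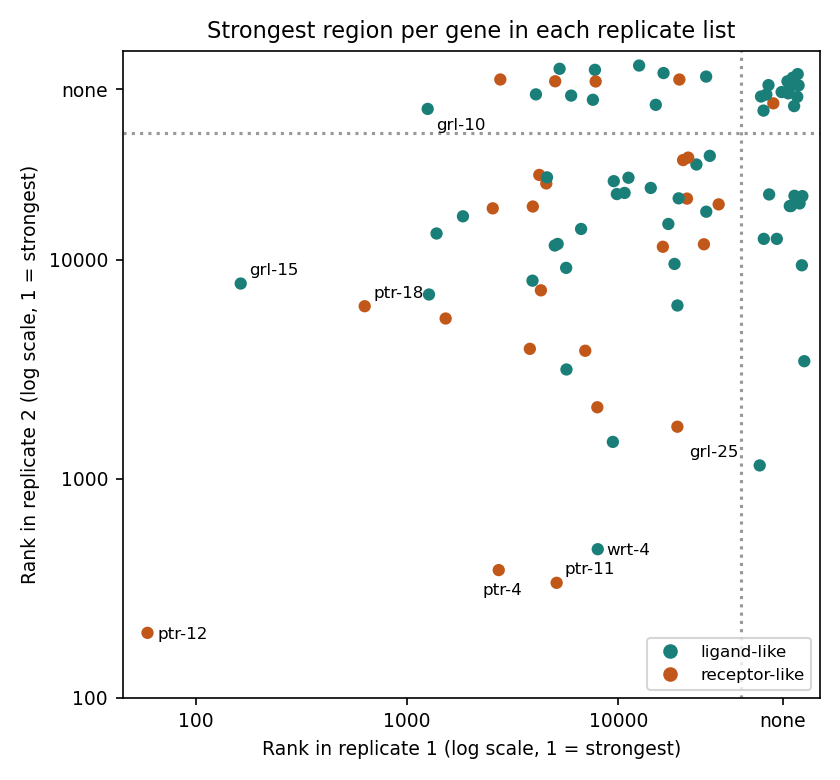
Rank of the strongest region in the promoter window or introns of each gene, in replicate 1 (horizontal axis) and replicate 2 (vertical axis). Both axes are on log scales with rank 1 the strongest. Genes without such a region in a list lie past the dotted lines, spread at random for legibility. Only ptr-12 lies in the lower left corner, at ranks 59 and 198, and grl-15, wrt-4 and grl-25 are strong in 1 replicate only. The ranks of ptr-12 belong to different regions, with summits 7427 bp (replicate 1) and 7258 bp (replicate 2) from the 5′ end.

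GATA words were about as common at these summits as beside them. Of the 45 strongest pooled regions, 12 (26.7%) had a word within 50 bp of the summit, and the windows of the same size 500 bp to the left and to the right held a word in 7 (15.6%) and 12 (26.7%). Over all 21761 pooled regions the shares were 23.9% at the summit, 20.7% to the left and 20.5% to the right. A word was present at 6 of 25 ligand-like and 6 of 20 receptor-like summits. Both words at the grl-15 summit read TTATCT on the gene's strand, as shown above, and begin 34 and 10 bp before the summit. The summits of ptr-4, ptr-11 and ptr-12 within the searched sequence held none. In the promoter windows themselves, 77 of 84 genes (91.7%) had at least 1 word and the mean was 3.20, beside 93.3% and 3.10 for all genes. The windows of ptr-12, ptr-3, wrt-3, wrt-5, wrt-6, grl-27 and grd-14 held no word. A word in a window is a description of its letters and not a site.

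Several of the stronger values lay where pooled regions were dense, and others did not. In blocks of 250 kb, the genome median was 54.0 pooled regions per block, in a range of 0 to 151. The block of ptr-12 held 124, that of ptr-21 and grl-16 held 101, and that of ptr-11 held 94, all on chromosome I and above the 96th percentile of blocks. The block of ptr-2, which had no pooled region in its searched sequence, held 135. By contrast grl-15 lay in a block with 38 regions, ptr-18 in one with 51 and wrt-3 in one with 53, and grl-24 lay in a block at the end of chromosome IV with 0. The last pooled summit of that chromosome is 1015 kb before grl-24, and past it replicate 1 lists 7 regions and replicate 2 lists 1, so the absence of a region at grl-24 goes with a stretch that is nearly empty in all lists. With chromosome I left out, 15 of 19 receptor-like genes (78.9%) and 24 of 57 ligand-like genes (42.1%) had a pooled region, beside 40.8% of all genes, and 2 rather than 4 genes were among the 1000 strongest. Among the 5000 strongest regions, the receptor-like share was 26.3% and the ligand-like share 7.02% without that chromosome, beside 11.5% of all genes. Per kb searched these were 0.0520 regions in receptor-like genes and 0.0314 in ligand-like genes, beside 0.0492 in all genes. The part of local density in these ranks was not tested.

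**Figure D5:**
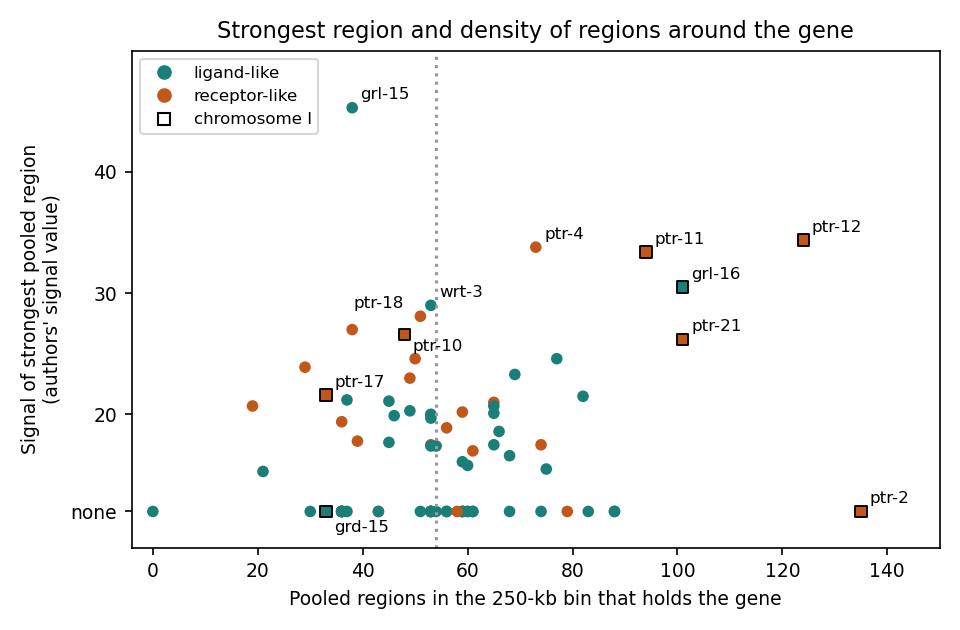
Signal of the strongest pooled region of each gene (vertical axis, authors' signal value; genes with no region are at the bottom) against the number of pooled regions in the 250-kb block that holds the gene (horizontal axis). Squares are genes on chromosome I and the dotted line is the genome median of 54.0; ptr-12, ptr-11, grl-16 and ptr-21 lie in blocks with 94 to 124 regions, and grl-15 lies in a block with 38.

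Beyond the gene bodies, an IDR peak lay within 10 kb of 4 of the 84 genes (4.76%), beside 5.86% of all genes. These were ptr-12, with the exon peak, ptr-24, wrt-1 and wrt-10. The peak near ptr-24 had rank 252 and signal 48.0 and lay 432 bp past the end of the gene. The peak near wrt-1 and wrt-10, which are neighbours, had rank 278 and signal 46.8, lay 1646 bp upstream of wrt-1, and was 293 bp upstream of the 5′ end of another gene, ZK1290.5. None of the 47 grd and grl genes had an IDR peak within that distance.

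Neighbouring genes of the set shared 2 regions, both in replicate 2. A region of rank 12457 lay in an intron of grd-13 and in the promoter window of its neighbour grd-3. A region of rank 17592 lay in the promoter windows of grl-29 and grl-30. These genes were counted separately but rest on the same regions. The cluster of grl-28, grl-29, grl-30, grl-31 and grl-27 on chromosome V had no pooled region in any searched sequence.

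A list of 13 other genes tied to this pathway by homology or function was searched in the same way, and 9 had a pooled region (69.2%), beside 42.2% of all genes. Their median searched sequence was 4670 bp, beside 1878 bp for all genes, and they held 0.325 pooled regions per kb, beside 0.232. The strongest were at lrp-1, a megalin-related receptor needed for moulting, with signal 35.0 (rank 771) in an intron, and at ncr-1, a Niemann-Pick C1-related sterol transporter, with signal 28.8 (rank 1773). At lrp-1, replicate 1 gave rank 3031 and replicate 2 rank 1220 at that site, so both replicates listed it. At ncr-1, replicate 2 ranked the site 223 with signal 25.8, and replicate 1 had no summit within 100 bp. The genes lon-2, gpn-1, ncr-2, daf-6, tra-1, hhat-2 and che-14 had pooled ranks from 4509 to 18561. Of these, che-14 and daf-6 encode Patched-related or Dispatched-related membrane proteins, and tra-1 encodes the relative of the Gli transcription factors. No pooled region was found in the searched sequence of scp-1, phg-1, ptd-2 or hhat-1.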

How the data were processed

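The authors deposited lists of regions on ce10 and ce11, and the ce11 lists were used. Per the deposited text records, the relaxed lists were made from alignments and 1 further file and mix peaks with background, and the IDR list was made from the relaxed lists. The sources used here do not give the aligner, the peak caller, the thresholds or the read depth. Each region carries the authors' signal and a deposited −log10 q-value, and ranking used the signal. Replicate lists stop at 30000 regions each.

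Gene models came from Ensembl release 115 (WBcel235, identical to ce11), with Python 3.11.15, numpy 2.4.6, pandas 2.3.3, scipy 1.17.1, statsmodels 0.14.6 and matplotlib 3.10.9. A summit in the promoter window or an intron assigned a region to a gene. Assignment was tested on simulated regions. Replicate summits within 100 bp counted as a match. GATA words were sought within 50 bp of summits. No test was run, since there is 1 group and genes are not replicates.

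The genes and lists were chosen with earlier results of these data known. Named genes were those with an IDR peak in the searched sequence, those with a pooled region of rank 2000 or better, the 3 best of each family, and hog-1, qua-1, ptc-1 and ptc-3. Also named were genes with a region in the first 2000 ranks of both replicates, where the summits lay within 100 bp. Others were named after their values were seen. Alternatives changed the window, the lists, the match distance and the motif window.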

Additional observations from a re-analysis of the deposited data

How the results depend on the processing

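Of 74 alternative values, 55 stayed within the tolerance and 19 moved further. The tolerance was 1.5 times the reported count or, for the median rank, 3984 ranks (1 SD of the replicates' medians). That SD comes from the median ranks with 1 replicate left out, 5984 and 11618. It therefore cannot judge those values, although they are counted among the 55. With the promoter window alone, 45 genes with a pooled region became 23, 25 ligand-like genes became 13, 20 receptor-like genes became 10, 13 genes matched in both replicates became 5, 4 genes among the 1000 strongest became 1, and 12 summits with a GATA word became 5. With the 5000 strongest pooled regions alone, the same counts were 14, 5, 9 and 6, the median rank went from 8351 to 2198 and 5 summits had a word. Among the 280 strongest pooled regions, 0 genes were represented. Matched genes numbered 7 with summits within 50 bp, 20 within 200 bp and 23 by any overlap. Summits with a word numbered 7 within 25 bp and 20 within 100 bp. With chromosome I left out, an alternative added after the data were seen, 2 genes were among the 1000 strongest.

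With 1 replicate left out, using the list of the other shortened to 21761 regions, genes with a region numbered 47 to 53, ligand-like genes 31 to 31, receptor-like genes 16 to 22, genes among the 1000 strongest 3 to 4, median ranks 5984 to 11618 and summits with a word 8 to 17. Matches in both replicates need both. No paired analysis was possible because there is 1 group of samples. Depth is unknown, so whether a gene with no region is unbound or below detection cannot be told apart.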
